A study of Homo sapiens with 6 samples.

Results

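The MYC, MAX and MXD network was described here by 10 genes, MYC, MYCN, MYCL, MAX, MXD1, MXD3, MXI1, MNT, MGA and MLX. The members were taken by gene symbol, after the transcripts listed in the count tables had been matched by identifier to a GENCODE annotation, and all 10 were found among 37111 genes. K562 is a human leukemia cell line derived from chronic myelogenous leukemia, and the cells were untreated and taken from one flask. They were assayed by PRO-seq, which sequences the RNA held by engaged RNA polymerases (2 libraries), and by total RNA-seq after depletion of ribosomal RNA (4 libraries). The replicates therefore carry no spread between cultures, and p-values measure only the spread between these libraries, which may be technical.

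MYC proteins bind DNA only as dimers with MAX, mostly at E-box sequences, and recruit coactivators to promoters. MXD proteins, MXI1, MNT and MGA compete for the same partner and bring corepressors to the same kind of site, while MLX is the partner of a parallel branch that senses glucose and shares some MXD and MNT proteins. In blood cell lines MYC is known for its short-lived messenger and for its fall when cells stop dividing, when some MXD genes are turned on.

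The site that the network reads occurs in the promoters of some of its own genes, and these sequences are shown because the level of each such gene is given below. Promoter windows of RefSeq (GRCh38.p14) run from 250 bases before to 50 bases after a transcription start, and 14 windows of the 9 members other than MYC were searched on both strands for the E-box CACGTG and for the variant CACGCG, which reads CGCGTG on the other strand. CACGTG was found in 2 of the 14 windows and in 7.26% of all 35116 windows, and CACGCG in 3 of the 14 and in 11.4% of all. Each of the 5 matches lay in a window of its own, and the capitals mark the motif in 24 bases read 5′ to 3′ on the strand of the gene.
MNT, chr17:2401239-2401262, minus strand, motif 193 bases before the start: tgcccgggcCACGTGtgcgcgcgc
MLX, chr17:42567041-42567064, plus strand, motif 50 bases before the start: ggcgcgggtCACGTGggcacgcca
MGA, chr15:41660375-41660398, plus strand, motif 21 bases before the start: gggtaggagCGCGTGcgcggtgac
MXI1, chr10:110225995-110226018, plus strand, motif 8 bases after the start: taaacaaacCACGCGcgggctgcc
MXD3, chr5:177312730-177312753, minus strand, motif 8 bases after the start: aggccatttCGCGTGcctccaggg
For MNT, MLX and MGA the window belongs to the start of the transcript that was counted, whereas for MXI1 and MXD3 it belongs to another start. A match is a stretch of letters and not a measured binding site, and windows without one say nothing of binding elsewhere.

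Counts on transcription units (TUs, here 1 counted transcript per row) ranged from 5732780 to 9002746 in the RNA-seq libraries and were 6993816 and 7245632 in the PRO-seq libraries. They were converted to TPM, a read density per length scaled to the same total in each library, with the exon length for RNA-seq and the span minus 1000 bases for PRO-seq, so levels of different genes are compared per length. K562 markers were present, since GATA1, the erythroid regulator, reached 155 TPM in RNA-seq and the fusion partner ABL1 31.4 TPM. The 10 such markers ranged from 13.2 TPM for HBZ, an embryonic globin, to 6287 TPM for HBG2, a fetal globin. The B cell gene MS4A1, the T cell gene CD3E, the fibroblast gene COL1A1 and the liver genes ALB and APOA1 lay between 0.0413 and 0.483 TPM, and COL1A2 was at 1.36 TPM. Among 9 markers of other cell types that were counted, CD3D (109 TPM), EPCAM (120 TPM) and KRT8 (483 TPM) were not low, and their part in the results was not tested.

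The 10 genes formed a different order in the 2 assays. MYC led in PRO-seq and stood with MAX at the top of RNA-seq, while MNT and MXD3, which encode repressors, stood at ranks 3 and 4 in PRO-seq and at ranks 9 and 8 in RNA-seq. MAX and MGA did the reverse and stood at ranks 7 and 8 in PRO-seq and at ranks 2 and 4 in RNA-seq. The ranks of MAX rest on the lengths of the transcript that was counted, a dependence given below. In RNA-seq the ranges over the 4 libraries overlapped for the neighbours MYC and MAX, MLX and MGA, MXD1 and MXI1, and MYCL and MXD3. Within a library, MYC was above MAX in 2 of 4, MLX above MGA in 4 of 4, MXD1 above MXI1 in 3 of 4 and MYCL above MXD3 in 3 of 4. In PRO-seq only MLX and MNT overlapped among neighbours.

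**Figure D1:**
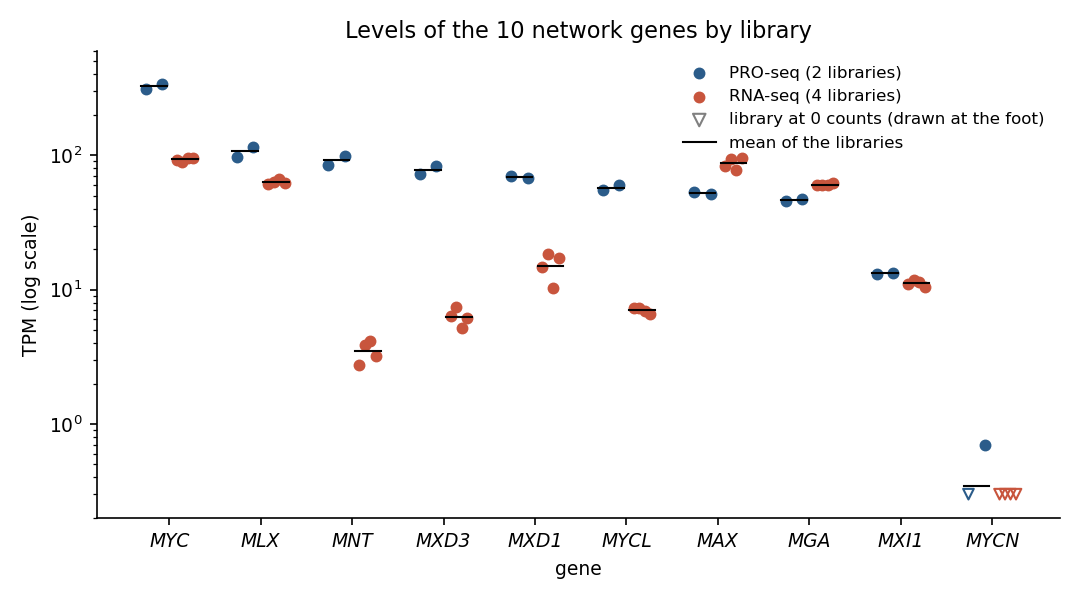
TPM of the 10 genes on a log axis, ordered by mean PRO-seq TPM, with 1 point per library (2 PRO-seq, 4 RNA-seq), a bar at the mean and open triangles for libraries with 0 counts. MNT, MXD3, MXD1 and MYCL are separated by a wide gap between assays, whereas MAX and MGA have RNA-seq points above their PRO-seq points.

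The ratio of RNA-seq to PRO-seq TPM is proportional to the half-life of an RNA at steady state, and this relative half-life is the quantity the study set out to estimate. Its main estimates came from earlier published PRO-seq and poly-A+ RNA-seq data. The study found those estimates less variable than the ones from the libraries used here. TUs were kept where PRO-seq exceeded 10 TPM and RNA-seq exceeded 1 TPM. Each TU was tested against the median mRNA with the quasi-likelihood test of edgeR on the counts. Values are given as log2 differences from that median, with the standard error (SE) and the Benjamini-Hochberg adjusted p over all TUs tested. The median mRNA had an RNA-seq TPM of 0.643 times its PRO-seq TPM. PRO-seq counts polymerases, so faster elongation and less synthesis cannot be told apart, and a relative half-life has no unit of time.

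Of the 10 genes, 9 passed the thresholds and all but MYCN were tested. The RNA-seq to PRO-seq ratio was above that of the median mRNA for 3 genes (MAX, MGA, MXI1), below it for 5 (MNT, MXD3, MYCL, MXD1, MYC), and not called for MLX. These counts must be read against the background, since 90.4% of 10053 TUs were called, 40.0% above and 50.4% below. The median of the 9 members was -1.18, against -0.24 over all TUs tested and quartiles of -1.06 and 1.08 over single mRNAs. The members covered a range from -4.09 for MNT to 1.39 for MAX. The 95% intervals of neighbours in this order overlapped only for MXD3 with MYCL and for MXD1 with MYC.

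**Figure D2:**
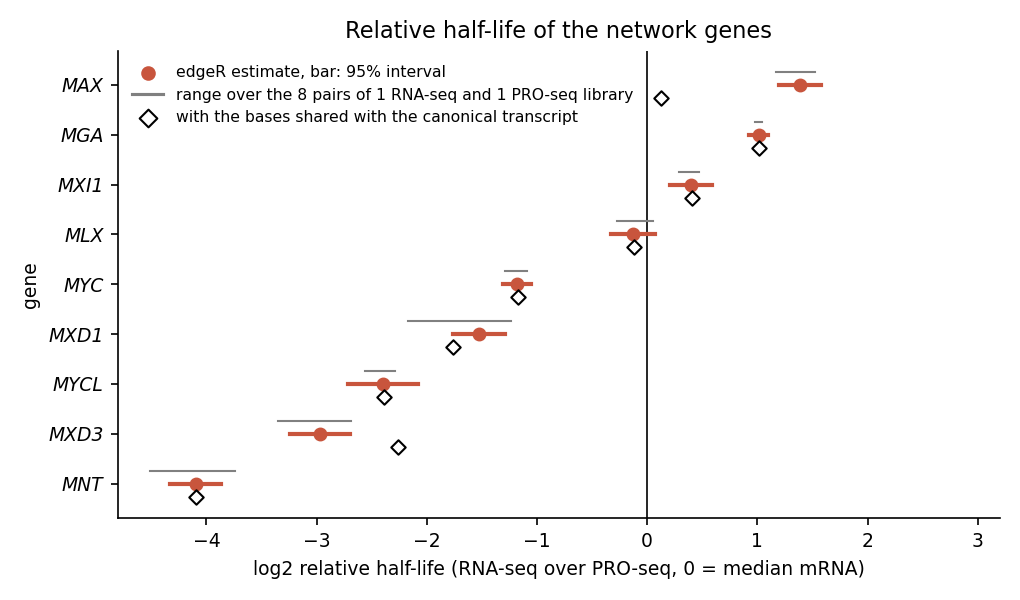
Log2 relative half-life of the 9 tested genes against the median mRNA at 0, with the edgeR 95% interval, the range over the 8 pairs of 1 RNA-seq and 1 PRO-seq library, and the value when only bases shared with the canonical transcript count as length. MNT lies lowest at -4.09, and MAX moves from 1.39 to 0.13 with the shared lengths.

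MYC, the founding oncogene of the family (ENSG00000136997, GRCh38 chromosome 8, 127736231 to 127742951, plus strand, 3 exons), had the highest PRO-seq level of the network and, with MAX, the highest RNA-seq level. Its PRO-seq level was 312 and 342 TPM in replicates 1 and 2, at the percentile 98.9 of 18964 mRNAs. Its RNA-seq level was 92.6, 89.2, 95.8 and 94.7 TPM in replicates 1 to 4, at the percentile 90.1. The RNA-seq libraries lay close together and far from both PRO-seq values. The log2 relative half-life was -1.18 (SE 0.062, adjusted p = 4.5e-17, 95% interval -1.31 to -1.05), which is 2.26-fold below the median mRNA, and it lay between -1.29 and -1.09 in all 8 pairs of libraries. The value stands at the percentile 23.0 of the 8733 mRNAs past the thresholds, a smaller set than the one used for the levels.

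MYCL, the family member first found amplified in lung cancer (ENSG00000116990, chromosome 1, 39895428 to 39901917, minus strand), was transcribed at a moderate level. PRO-seq gave 54.9 and 60.1 TPM, and RNA-seq gave 7.25, 7.25, 6.91 and 6.55 TPM. Both assays were tight, although they rested on only 165 PRO-seq and 302 RNA-seq counts. Its log2 relative half-life was -2.39 (SE 0.155, adjusted p = 7.1e-15), or 5.26-fold below the median mRNA. An antisense gene, MYCL-AS1, lies over 20.9% of the counted body, and whether reads were counted by strand is not known here.

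MYCN, the paralog known from neuroblastoma (ENSG00000134323, chromosome 2, 15940550 to 15947004, plus strand), was at the limit of detection. It had 0 counts in each of the 4 RNA-seq libraries, and 0 and 1 counts in the PRO-seq libraries. A count of 0 among 28672761 RNA-seq counts allows up to 0.0844 TPM (3 counts, counting error only). No ratio was computed, and MYC and MYCL were thus the members of the family with measurable RNA at this depth.

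MAX, the obligate partner of MYC (ENSG00000125952, chromosome 14, 65006174 to 65102387, minus strand), had RNA-seq levels in the range of MYC and much lower PRO-seq levels. RNA-seq gave 82.6, 93.8, 77.7 and 95.04 TPM, and PRO-seq gave 52.9 and 51.5 TPM. The RNA-seq ranges of MAX and MYC overlapped, with MYC higher in 2 of 4 libraries. Its log2 relative half-life was 1.39 (SE 0.092, adjusted p = 1.2e-14), or 2.61-fold above the median mRNA. This value depends on the transcript that was counted, a form of 4 exons with 330 exon bases, of which 66.4% are shared with the canonical transcript, as are 28.3% of its span of 96214 bases. When only shared bases were used as lengths, an alternative chosen after seeing the data, the value was 0.13 and was not called (edgeR adjusted p = 0.17). This alternative kept all counts of the TU and changed only the lengths, here and for every gene given with shared lengths below. It is therefore a check of the dependence on length and not an estimate for the canonical transcript. Genes on the other strand, FNTB and the CHURC1-FNTB readthrough among them, lie over 68.9% of the counted body.

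MLX, the MAX-like partner of the glucose-sensing branch (ENSG00000108788, chromosome 17, 42567100 to 42573203, plus strand), ranked after MYC in transcription. PRO-seq gave 97.7 and 116 TPM, and RNA-seq gave 61.0, 63.0, 66.2 and 62.3 TPM. The log2 relative half-life was -0.13 (SE 0.097, adjusted p = 0.22, 95% interval -0.32 to 0.07), and no difference from the median mRNA was called. With the median of all TUs as the reference the sign turned, to 0.12. Exons of PSMC3IP on the other strand lie over 32.3% of its exon bases.

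MNT, a broadly expressed repressor that pairs with MAX or MLX (ENSG00000070444, chromosome 17, 2384073 to 2401060, minus strand), had the widest gap between the assays. PRO-seq gave 84.4 and 99.4 TPM, at the percentile 90.0 of 18964 mRNAs, and RNA-seq gave 2.77, 3.86, 4.12 and 3.18 TPM, at the percentile 51.5. Every RNA-seq value was far under both PRO-seq values. MNT had a log2 relative half-life of -4.09 (SE 0.113, edgeR adjusted p = 3.7e-24), which is 17.1-fold below the median mRNA. This is at the percentile 1.20 of the 8733 mRNAs past the thresholds. The relative half-life lay between -4.51 and -3.74 in the 8 pairs of libraries. The counted transcript is the canonical one, and a gene on the other strand (ENSG00000262456) covers 21.6% of its exon bases.

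MXD3, a repressor associated with S phase (ENSG00000213347, chromosome 5, 177301461 to 177311870, minus strand), had the next widest gap. PRO-seq gave 72.7 and 82.6 TPM, and RNA-seq gave 6.32, 7.38, 5.21 and 6.15 TPM. MXD3 had a log2 relative half-life of -2.97 (SE 0.133, adjusted p = 6.8e-19), or 7.81-fold below the median mRNA. The counted transcript is one with a retained intron, which shares 23.9% of its exon bases with the canonical transcript, and exons of RAB24 on the same strand lie over 40.6% of its exon bases. With shared lengths the value was -2.26 and stayed called.

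MXD1, the MAD protein linked to differentiation (ENSG00000059728, chromosome 2, 69897688 to 69938259, plus strand), had PRO-seq levels near those of MXD3 and more RNA. PRO-seq gave 70.6 and 67.9 TPM, and RNA-seq gave 14.7, 18.4, 10.2 and 17.1 TPM. RNA-seq replicate 3 was the lowest, with 23 counts against 44 to 65 in the other libraries. MXD1 had a log2 relative half-life of -1.52 (SE 0.116, adjusted p = 3.2e-13), with a range from -2.17 to -1.24 over the 8 pairs of libraries. The counted transcript shares 66.0% of its exon bases with the canonical one, and exons of SNRNP27 on the same strand lie over 27.6% of them. With shared lengths the value was -1.76.

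MXI1, the remaining MXD-type repressor among the 10 genes (ENSG00000119950, chromosome 10, 110207605 to 110287365, plus strand), was the least transcribed of the tested members. PRO-seq gave 13.1 and 13.3 TPM, just over the threshold of 10 TPM, and RNA-seq gave 11.0, 11.8, 11.5 and 10.5 TPM. The log2 relative half-life was 0.40 (SE 0.094, adjusted p = 0.00026), or 1.32-fold above the median mRNA. In a test for a difference beyond 2-fold, it was not called (adjusted p = 1). That test called 21.3% of TUs above and 29.8% below the median mRNA, and among the members it called MAX above and the same 5 below.

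MGA, a very large protein that binds both E-box and T-box sites and belongs to the PRC1.6 repressor complex (ENSG00000174197, chromosome 15, 41660405 to 41769940, plus strand, 24 exons), gave the most precise values. RNA-seq gave 60.0, 60.5, 59.6 and 61.9 TPM, and PRO-seq gave 46.0 and 47.3 TPM. They rest on 9911 RNA-seq and 2642 PRO-seq counts over 12046 exon bases. The log2 relative half-life was 1.01 (SE 0.042, adjusted p = 1.2e-19), or 2.02-fold above the median mRNA, and a difference beyond 2-fold was not called (adjusted p = 0.30). No other counted TU that was matched to the annotation lies over the counted bodies of MGA, MXI1 or MYC.

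**Figure D3:**
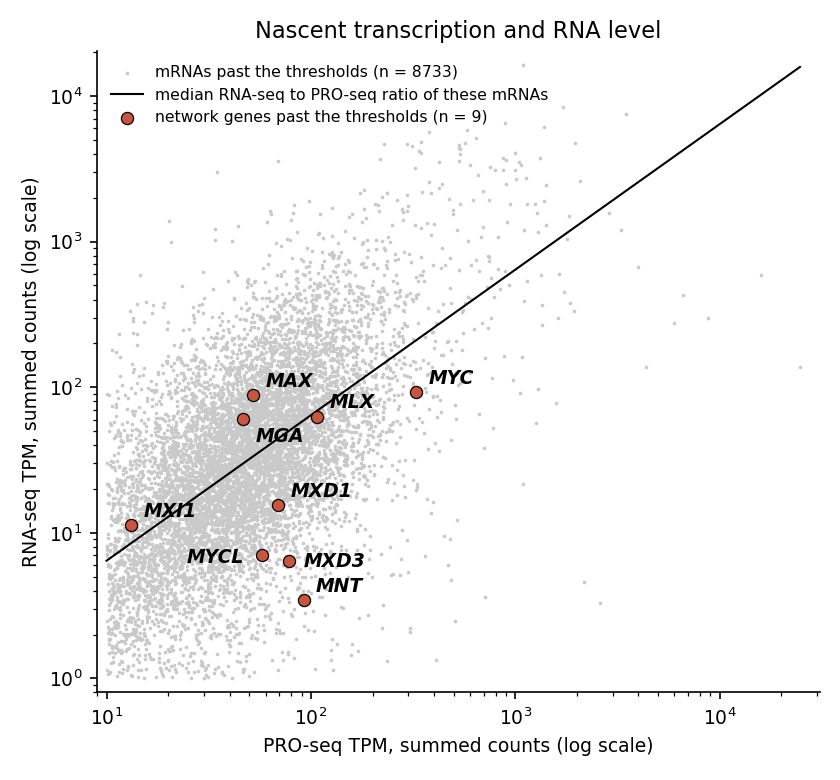
RNA-seq TPM against PRO-seq TPM from summed counts, both on log axes, for 8733 mRNAs past the thresholds (grey), with the line of their median ratio and the 9 tested network genes labelled. MNT, MXD3 and MYCL fall far below the line, MAX and MGA lie above it, and MLX lies near it.

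The summed TPM of the 10 genes was divided into shares, which need no reference mRNA. The share of MYC was 38.8% in both PRO-seq libraries, and 27.4%, 25.1%, 28.4% and 26.5% in the RNA-seq libraries (26.9% ± 1.39, SD, n = 4). MAX took 25.1% ± 1.69 of the network in RNA-seq (SD, n = 4) against 6.21% ± 0.512 in PRO-seq (SD, n = 2). MGA took 17.4% ± 0.328 against 5.54% ± 0.243. MNT, in contrast, took 1.00% ± 0.184 of the RNA-seq total and 10.9% ± 0.568 of the PRO-seq total, and MXD3 took 1.80% ± 0.226 and 9.21% ± 0.246. The shares of 9 of the 10 genes did not overlap between assays. The share of all TUs without such overlap was not computed. By another measure, the edgeR test, 90.4% of all TUs tested were called between the assays. Nothing particular to the network is therefore read from this count. With 4 libraries against 2, the two-sided exact permutation test has 15 assignments and cannot go below p = 0.133, the value it gave for each of those 9 (adjusted p = 0.148). Computed from counts without length, the difference for MYC, MAX and MXI1 turned its sign. The MAX shares rest on the lengths of the counted MAX transcript, and so does the sum behind every other share.

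**Figure D4:**
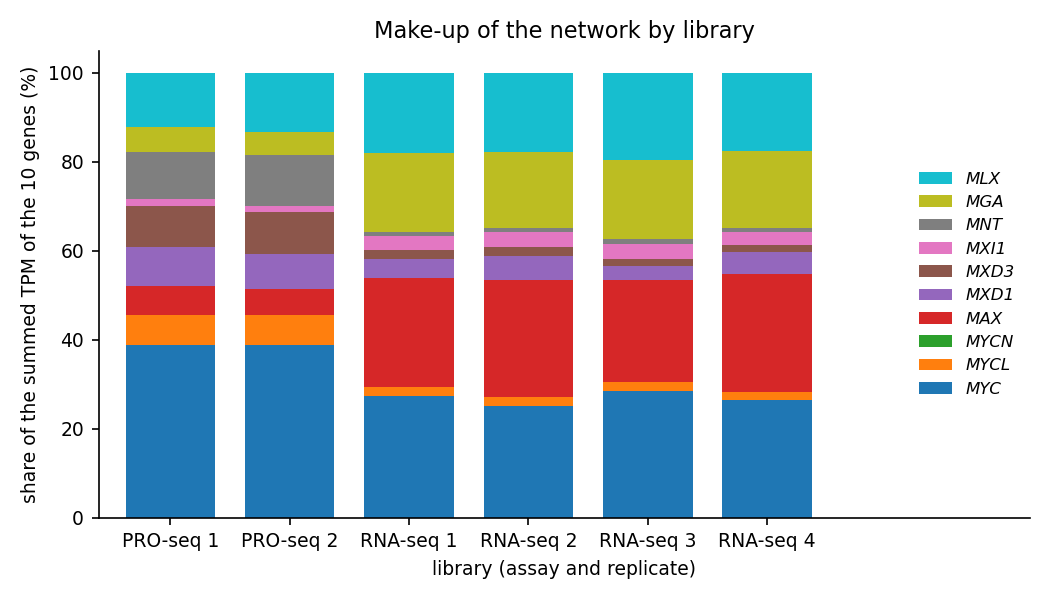
Stacked shares of the summed TPM of the 10 genes in each library, in percent. MYC fills 38.8% of both PRO-seq bars, MAX and MGA fill more of the 4 RNA-seq bars, and the band of MNT shrinks from 10.9% to 1.00% on average.

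Ratios between members within a library showed the same gap from another side. The level of MYC over the summed levels of the repressors MXD1, MXD3, MXI1 and MNT was 1.30 in both PRO-seq libraries. In RNA-seq it was 2.66, 2.15, 3.09 and 2.57. This sum leaves out the repressor MGA, and also MXD4, an MXD gene that is not among the members. MGA RNA, at 59.6 TPM or more, was above that of each summed gene in every RNA-seq library. Its PRO-seq level was below those of MXD1, MXD3 and MNT. The rise of the ratio therefore depends on the genes chosen for the sum, and is not read for the repressors as a whole. MYC over MNT was 3.70 and 3.43 in PRO-seq and 33.5, 23.1, 23.2 and 29.7 in RNA-seq. MYC over MAX moved the other way, from 5.91 and 6.63 in PRO-seq to 1.12, 0.952, 1.23 and 0.996 in RNA-seq, and this ratio shares the dependence on the counted MAX transcript. MGA over MNT was 0.544 and 0.475 in PRO-seq and between 14.5 and 21.7 in RNA-seq. No library of one assay reached the range of the other in any of these ratios. How often this holds for ratios of other genes was not counted, and 90.4% of single TUs were called by edgeR. Nothing particular to the network is therefore read from it.

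Sequence features of the canonical messengers were compared as a description. In MAX, MXD1, MXD3, MYCL and MGA the canonical transcript is not the one that was counted. The 3′ untranslated regions (UTRs) were searched for the pentamer ATTTA, the core of AU-rich elements, and for the nonamer TTATTTATT. Among 8699 mRNAs tested, 73.0% held the pentamer and 9.38% the nonamer, and the nonamer was in none of the 10 members. MXD1 held 10 copies of the pentamer in 4661 bases and MYC held 6 in 1993 bases. Among UTRs of similar length, 55.5% held at least as many as MXD1 and 36.5% at least as many as MYC. MNT held none in 2828 bases, whereas 96.0% of 575 UTRs of similar length held at least 1. MXD3 held none in 378 bases, where 40.6% of 315 UTRs of similar length held at least 1. MAX and MGA held 3 and 4 copies. No relation between these letters and the relative half-life was tested. The density of splice junctions was below that of the median mRNA (2.84 per kb) in 8 of the 10 members. It was 0.28 per kb in MYCL and 0.54 in MYC, at the percentiles 3.21 and 7.19, and 1.02 in MNT, at the percentile 16.1. MAX and MGA, at 1.99 and 1.89 per kb, were also below the median.

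For each member the protein-coding genes nearest in log2 (TPM + 1) over the 6 libraries were listed, by Euclidean distance. Nearest to MYC were PTPN7, a phosphatase of blood cells (distance 0.27), and PPP1R15A, a stress-induced phosphatase subunit (0.30). Nearest to MNT were SETD1B, a histone methyltransferase, and POM121C, a nuclear pore gene, at the larger distances of 0.50 and 0.51. TMEM97 and KCTD3 were nearest to MGA (0.11 and 0.11) and OSBPL8 and HMG20B to MAX (0.17 and 0.22). MTHFSD and PPARGC1B were nearest to MYCL, DNAJC16 and USP4 to MXD1, ZNF251 and H2BC6 to MXD3, EPHB6 and LHFPL2 to MXI1, and ATXN7L3 and ACTR1B to MLX. These distances describe levels in 6 libraries of a single cell line.

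The genes that act with the network were described by list, with counts called in each direction beside the background of 40.0% above and 50.4% below. Among 8 tested of 12 other E-box factors, 2 were above and 6 below the median mRNA, with a list median of -0.57. The factors USF1 and USF2 were the ones above, at 1.59 (SE 0.102) and 1.17 (SE 0.099). MLXIP, which dimerizes with MLX, was at -1.37 (SE 0.058) and TFE3, a lysosomal regulator, at -1.27 (SE 0.127). Among 14 MYC cofactors, 6 were above and 7 below, with a median of -0.55. The spread was wide, since the ATPase RUVBL2 and the actin-like ACTL6A reached 3.44 (SE 0.050) and 3.46 (SE 0.058), while the acetyltransferase CREBBP was at -2.83 (SE 0.059).

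For the repressor branch, the 14 genes of the SIN3 corepressor, which MXD proteins recruit, split into 7 above and 6 below, with a median of 0.38. Its scaffold SIN3A was at -1.34 (SE 0.048), whereas SAP30 was at 3.53 (SE 0.167) and the deacetylase HDAC2 at 3.59 (SE 0.091). The SAP30 value rests on only 33 PRO-seq counts, at 11.3 TPM, close to the threshold of 10 TPM. With lengths shared with the canonical transcript, HDAC2 was at 2.37 and still called. In PRC1.6, the Polycomb complex that holds MGA, 5 of 9 genes were above and 3 below, with a median of 0.27. The heterochromatin protein CBX3 was at 2.01 (SE 0.050) and the E2F partner TFDP1 at 1.57 (SE 0.061), while RYBP was at -2.24 (SE 0.049) and E2F6 at -1.38 (SE 0.067). MGA itself, at 1.01, lay on the side of CBX3 and TFDP1.

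Genes that act on MYC itself were also divided. Of 17 genes of MYC protein turnover, 9 were above and 6 below, with a median of 0.25. SET, an inhibitor of the phosphatase PP2A, was the highest at 4.39 (SE 0.042). The deubiquitinase USP36 was at -2.38 (SE 0.065) and the kinase PLK1 at -1.31 (SE 0.086). With lengths shared with the canonical transcript, SET was at 3.66 and PLK1 at -0.53, both still called. Of 15 proteins that bind AU-rich or coding regions of MYC messenger or act on it, 5 were above and 10 below, with a median of -0.54. The decay factors ZFP36 and ZFP36L1 were at -5.99 (SE 0.225) and -5.46 (SE 0.182), lower than any network gene (ZFP36L1 at -6.36 with shared lengths). These 2 values rest on only 53 and 27 RNA-seq counts, at 2.23 and 2.73 TPM, close to the threshold of 1 TPM. The cold-shock protein YBX1 was at 2.18 (SE 0.046). PVT1, the noncoding neighbour of MYC, was tested alone among its list of 8, at -0.31 (SE 0.068, adjusted p = 0.00012). With the median of all TUs as reference it was at -0.07 and not called (adjusted p = 0.35).

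Families of regulators with which MYC is often grouped gave their own counts, beside 40.0% of all TUs tested above and 50.4% below. In the test for a difference beyond 2-fold these shares were 21.3% and 29.8%. All 6 tested AP-1 genes (FOS and JUN family) were below the median mRNA, with a median of -2.91. In the E2F and RB family 8 of 10 tested genes were below and 2 above, with a median of -1.22. With shared lengths 4 genes of the family were above and 7 below, and in the test for a difference beyond 2-fold 0 were above and 5 below. The network, with 5 of 9 below and a median of -1.18, was not tested against either family. Its count below lies near the share of all TUs, so nothing particular to the network is read from it.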

How the data were processed

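The 4 RNA-seq libraries (single-end reads) and 2 PRO-seq libraries (paired-end reads) of untreated K562 cells were grouped by assay. The authors deposited raw read counts per transcript, with no normalization. The methods name Cutadapt for trimming, HISAT2 for alignment to GRCh38 and HTSeq for counting on GENCODE. For PRO-seq the first and last 500 bases of a TU were left out by the authors. Neither tool versions nor the use of strand in counting are given in the sources used here. According to the labels the longest transcript was counted, whereas the methods use the most abundant one for TU features. For MAX, MXD1, MXD3, MYCL and MGA the listed transcript was not the canonical one. In MYCL and MGA all exon bases of the listed transcript are shared with the canonical one.

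Of 42371 listed transcripts, 37339 were matched by identifier to GENCODE lifted to GRCh37, which supplied lengths, and member coordinates on GRCh38 come from its record of original positions. In RNA-seq, 3.64% to 3.69% of counts fell on unmatched transcripts, and in PRO-seq 2.80% and 2.81%. TUs with no PRO-seq length left (84) were left out, as were rows naming no TU, which held 66.5% to 68.6% of RNA-seq records and 86.5% or 88.6% of PRO-seq records.

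The main test was edgeR (4.0.16, R 4.3.3) with TMM, offsets for length and Benjamini-Hochberg adjustment, fitted on all 10053 TUs past the thresholds and centred on the median mRNA. DESeq2 (1.42.0), other normalizations, thresholds, lengths and references, summed close libraries and each library left out were alternatives. A simulation of RNA-seq against PRO-seq over 10016 TUs recovered 89.4% of 199 changed by 1 on the log2 scale, with 9 false calls. It drew independent libraries and left most TUs unchanged, whereas 90.4% of TUs were called in the data. The number of false calls therefore does not carry over to the data. RNA-seq replicates 1 and 3, and 2 and 4, differed by little more than sampling noise (chi-square per degree of freedom 1.11 and 1.12, against 1.74 to 2.11 for other pairs). Shares were compared by exact permutation tests (scipy 1.17.1). The depth of 5732780 to 9002746 counts limits precision for members with few counts, and intervals and limits cover counting error only where so stated, since without molecular identifiers a read is not an independent molecule.

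All 10 members were named, and in each partner list the 2 tested genes at either extreme of relative half-life, or all where 4 or fewer were tested. Members and lists were chosen with earlier results of these data known. SREBF2 and CCAT1 were not analysed here, and some genes that this rule names are not reported here.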

Additional observations from a re-analysis of the deposited data

How the results depend on the processing

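The calls and directions of MYC, MYCL, MXD1, MXD3 and MNT held in all 18 alternatives tried. MAX was no longer called with lengths shared with the canonical transcript (0.13, adjusted p = 0.17, edgeR), a setting that kept all counts and changed only the lengths. In a test for a difference beyond 2-fold, MXI1 (0.40, adjusted p = 1) and MGA (1.01, adjusted p = 0.30) were not called, and of all TUs 2140 lay above and 2996 below. In that test 2 other E-box factors, 2 SIN3 genes, 2 genes of MYC protein turnover and 5 MYC mRNA binders were called below, and 3 MYC cofactors, 2 PRC1.6 genes, 5 genes of turnover and 3 binders above. MLX, not called, turned from -0.13 to 0.12 with the median of all TUs as reference (adjusted p = 0.25), where 4572 TUs lay above and 4520 below. PVT1 was not called in either of these settings. Without TPM thresholds, 12048 TUs lay below at 10 summed counts or more and 10770 at 1 count in each assay. These settings tested more TUs and had no lower limit on RNA-seq TPM. MXI1 has no value with thresholds of 20 TPM (PRO-seq) and 2 TPM (RNA-seq), and MYCN has none in any setting.

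Leaving out each library in turn changed no member's call. The values ran from -1.64 to -1.41 for MXD1, from -0.23 to -0.02 for MLX and from -4.19 to -3.99 for MNT, and all TUs gave 3870 to 4010 above and 4897 to 5052 below. The share of MYCN differed by -0.0790 to 0 percentage points. Computed from counts without length, the RNA-seq minus PRO-seq difference in share was 15.5 percentage points for MYC, -24.4 for MAX and -2.70 for MXI1, each of the opposite sign to the value per length. With 500 instead of 1000 bases removed, PRO-seq TPM was 364 for MYC, 63.8 for MYCL, 62.8 for MAX, 82.7 for MXD1, 89.3 for MXD3, 15.9 for MXI1, 108 for MNT and 56.1 for MGA.

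Replicate numbers are shared by libraries of different assays and did not pair them (correlation of deviations -0.013 over 10053 TUs). With the replicate block, 3916 TUs were called above and 4960 below, and no member's call changed.

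Depth limits MYCN, which has no RNA-seq count, and leaves MXD1, MXD3, MNT, MYCL and MAX with 181 to 394 RNA-seq counts each. The lengths are those of one annotation release, which need not be the one counted on. Overlapping genes were not separated by strand here, and their part in the values of MAX, MXD1, MXD3, MNT, MLX and MYCL was not tested.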

Other observations

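The noncoding genes that lie near MYC and MYCN were mostly transcribed at low levels. PVT1 had 18.4 TPM in RNA-seq and 35.6 TPM in PRO-seq from summed counts. CASC11, the neighbour on the other side of MYC, had 56 PRO-seq counts (2.30 TPM) and 2 RNA-seq counts. PCAT1 had 133 PRO-seq and 2 RNA-seq counts, CASC8 had 62 and 0, and CASC19 had 24 and 1. MYCNOS, antisense to MYCN, had 9 PRO-seq counts and no RNA-seq count, and MYCNUT had 3 and 2. These 6 genes were under the thresholds and were not tested in the main comparison.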
